A study of Homo sapiens with 6 samples.

Results

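The genes described here encode the hnRNP proteins, the SR proteins and the CLK kinases, 3 classes of factors that set how pre-mRNA is spliced in the nucleus. They were chosen by symbol: genes whose symbol starts with HNRNP (the hnRNP class), genes named SRSF with a number together with TRA2A and TRA2B (the SR class), and CLK1 to CLK4 (the CLK class), each with at least 10 reads in 3 or more of 6 libraries. The rule found 39 members among the 16655 genes of the table, 21 of the hnRNP class, 14 of the SR class and 4 of the CLK class. All 39 symbols that matched also passed the read minimum and the low-count filter of the statistical model. HNRNPA1 and SRSF1 are of special interest, since the study named their proteins among the partners bound by RfA1.

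RNA-seq was done on HEK293T cells, which derive from human embryonic kidney and express the large T antigen of SV40. The control cells (GFP, n = 3) were transfected with the empty pEGFP-C1 vector, and the RfA1 cells (n = 3) with the same vector carrying reflectin A1 of the squid Doryteuthis pealeii, recoded for human cells and fused to GFP. Both groups had been grown for 24 h after lipofection of the plasmid, and the labels name no sorting of cells that took it up, so that each library is an average over the dish. The labels number the libraries 1 to 3 in each group but do not say whether they came from separate cultures, and the p-values measure the spread between these libraries. In such bulk samples fewer expressing cells and less RNA per cell cannot be told apart. Totals were 10272306 to 11566284 estimated reads per library. Compared pair by pair over all genes, every library stood nearer to a library of the other group than to a library of its own. RfA1 replicate 2 differed from GFP replicates 2 and 3 by a chi-square per degree of freedom of 3.74 and 3.69. From RfA1 replicates 1 and 3 it differed by 11.3 and 14. GFP replicate 1 differed from RfA1 replicates 1 and 3 by 5.4 and 5.89 but from GFP replicates 2 and 3 by 7.9 and 5.6. The closest pairs lay within a group, GFP replicates 2 and 3 (2.3) and RfA1 replicates 1 and 3 (1.92). Among the lineage markers checked, NEFL, NEFM and VIM were detected in every library with at least 42.7 TPM, PAX2, LHX1 and EYA1 with 3.43 to 7.06 TPM, and the blood marker PTPRC did not exceed 0.03 TPM. The transcript of RfA1 itself was not analysed here.

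As background, hnRNP proteins coat nascent transcripts and often repress the exons they cover, whereas SR proteins carry an RS domain rich in arginine and serine, bind exonic enhancers and recruit the U1 and U2 snRNPs. CLK kinases phosphorylate the RS domain in the nucleus, as SRPK kinases do in the cytoplasm, and thereby control where SR proteins reside and how they work. Many of these genes also control their own transcripts, through poison exons that send the mRNA to nonsense-mediated decay or through introns retained in the nucleus. Counts per gene, as used here, add all these isoforms together and cannot show a change in splicing.

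To show the genes in question at the level of sequence, promoter windows were taken from RefSeq (GRCh38.p14), of which 36 of the 39 members had an entry. The entries missing were those of HNRNPA1, SRSF2 and TRA2A. For genes with several start sites the first entry was used, and the 250 bases upstream of the start were examined on both strands for TATAAA (the core of the TATA box), CCAAT (the CCAAT box) and GGGCGG (the GC box). CpG dinucleotides were frequent, with a median of 25 per window against 11 in all 27305 windows, and the median GC content was 65.4% against 58%. All windows here means 1 per gene, also for genes not detected in these cells, whereas every member passed a read minimum. The windows of the tested genes alone were not counted, so these differences are not shown to be particular to splicing factors. GGGCGG was present in 24 of the 36 windows (66.7%) against 42.3% of all windows, CCAAT in 16 (44.4%) against 33%, and TATAAA in 5 (13.9%) against 11.1%. CCAAT was more frequent in the hnRNP class (13 of 20) than in the SR class (2 of 12). GGGCGG was present in 16 of 20 hnRNP windows and 3 of 4 CLK windows. In the SR class it was present in 5 of 12 (41.7%), near the share of all windows. The windows of SRSF1 and of the 3 members with an unadjusted p under 0.05 are shown, 5′ to 3′, with every match to these letters on either strand in capitals.
SRSF1, chr17:58007247-58007496, minus strand: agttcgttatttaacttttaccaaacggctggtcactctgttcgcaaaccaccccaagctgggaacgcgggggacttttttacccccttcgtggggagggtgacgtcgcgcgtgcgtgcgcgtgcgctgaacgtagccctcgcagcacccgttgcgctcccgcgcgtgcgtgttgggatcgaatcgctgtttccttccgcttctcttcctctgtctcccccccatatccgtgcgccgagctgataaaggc
HNRNPA0, chr5:137754364-137754613, minus strand: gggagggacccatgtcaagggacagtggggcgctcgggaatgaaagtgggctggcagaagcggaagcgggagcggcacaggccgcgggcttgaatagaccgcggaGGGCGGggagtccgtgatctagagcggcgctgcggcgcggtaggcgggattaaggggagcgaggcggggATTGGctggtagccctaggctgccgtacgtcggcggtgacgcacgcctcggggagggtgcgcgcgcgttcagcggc
SRSF12, chr6:89118072-89118321, minus strand: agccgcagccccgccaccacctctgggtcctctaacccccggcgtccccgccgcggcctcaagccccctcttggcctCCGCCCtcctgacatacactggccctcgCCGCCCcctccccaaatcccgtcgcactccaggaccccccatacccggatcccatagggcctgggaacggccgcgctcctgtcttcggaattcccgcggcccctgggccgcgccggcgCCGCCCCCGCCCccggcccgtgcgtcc
CLK1, chr2:200864659-200864908, minus strand: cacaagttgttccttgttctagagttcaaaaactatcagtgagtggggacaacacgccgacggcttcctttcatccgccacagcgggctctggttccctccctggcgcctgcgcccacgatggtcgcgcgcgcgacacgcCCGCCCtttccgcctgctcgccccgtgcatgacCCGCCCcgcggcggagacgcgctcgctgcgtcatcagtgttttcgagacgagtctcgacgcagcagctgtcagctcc
SRSF1 had 28 CpG dinucleotides and none of the 3 motifs in this window. HNRNPA0 had 1 CCAAT, on the reverse strand, and 1 GGGCGG, SRSF12 had 4 matches to GGGCGG and CLK1 had 2, all of them on the reverse strand. These matches describe the letters of the windows, and binding was not measured.

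The members differed far more from each other in level than between the groups of cells. Levels between genes were compared as TPM, which are scaled for transcript length, and together the 39 members made up 0.822% to 0.977% of all TPM. HNRNPA1, which represses exons and shuttles between nucleus and cytoplasm, was the most abundant of the hnRNP class with a mean of 917 TPM over the 6 libraries, followed by HNRNPA2B1 (861 TPM) and HNRNPAB (675 TPM). At the low end were HNRNPA0 (27.6 TPM), HNRNPLL (23.9 TPM) and HNRNPA1L2 (21.0 TPM), a close copy of HNRNPA1. In the SR class SRSF2 led with 544 TPM, before SRSF9 (315 TPM) and SRSF7 (290 TPM). SRSF6 (61.6 TPM), SRSF8 (16.0 TPM) and SRSF12 (7.24 TPM) were lowest. SRSF1 stood in the lower part of its class with 89.6 TPM, and the ratio of HNRNPA1 to SRSF1 in TPM was 9.81, 11.3 and 10.9 with GFP and 10.5, 10.3 and 9.07 with RfA1 (10.7 ± 0.770 and 9.97 ± 0.787, SD, n = 3), ranges that overlap. The CLK genes were ordered CLK2 (87.8 TPM), CLK3 (49.3 TPM), CLK1 (31.6 TPM) and CLK4 (10.9 TPM), and the ranges of neighbours over the 6 libraries did not overlap. In the hnRNP class, by contrast, 14 of 20 neighbouring pairs overlapped in their ranges, among them HNRNPA1 with HNRNPA2B1, and in the SR class 8 of 13.

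**Figure D1:**
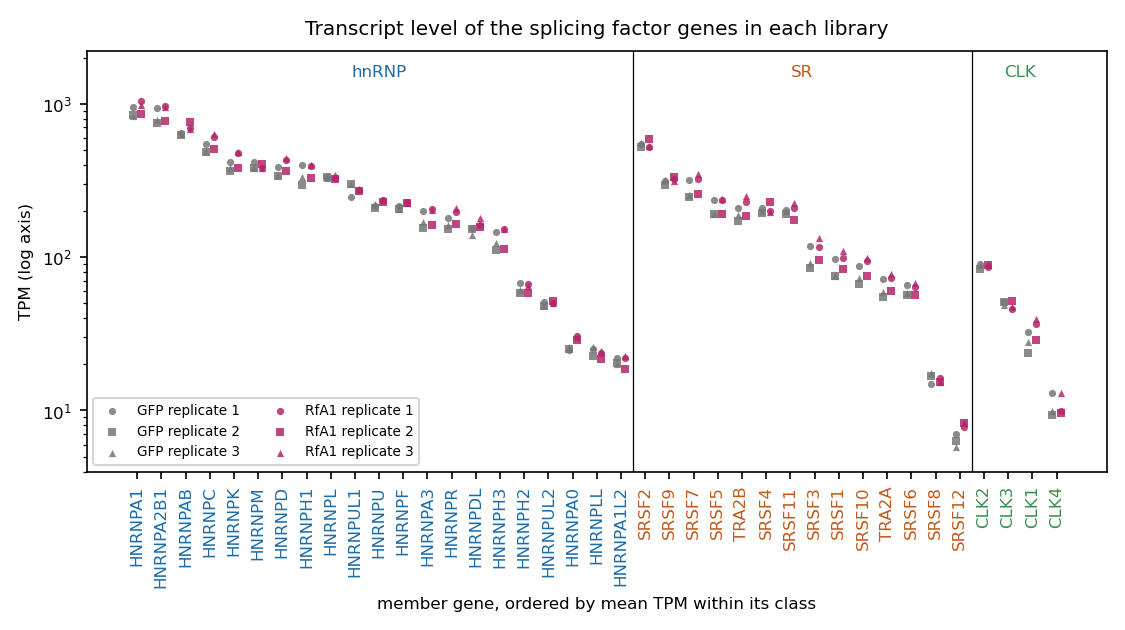
Transcript level in TPM (log axis) of the 39 members in each of the 6 libraries, ordered by mean level within the hnRNP, SR and CLK classes. Grey symbols are GFP libraries and magenta symbols RfA1 libraries, with a shape for each replicate number. Single libraries ran from 5.79 TPM (SRSF12) to 1034 TPM (HNRNPA1).

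The question of the comparison was whether expression of RfA1 altered the transcripts of these splicing factors. None of the 39 members passed an adjusted p of 0.05 under the edgeR quasi-likelihood model (0 of 39; all genes, 0.0769%, which is 10 of 13002), and none passed in DESeq2 or in limma on log2(TPM + 1). The smallest adjusted p was 0.321, for SRSF12. At an unadjusted p under 0.05 there were 3 members, SRSF12, HNRNPA0 and CLK1, a share of 7.69% against 13.9% of all tested genes, with 1 such member in DESeq2 and 5 in limma. All 3 had higher values with RfA1 (background 7.3%) and 0 members had lower ones (background 6.64%). In 2 members, HNRNPA0 and SRSF12, the lowest RfA1 value exceeded the highest GFP value (5.13% of the members; background 9.86%), and in 0 members was the order the opposite (background 8.01%). The difference of every member was limited by its 95% confidence interval, not adjusted for the number of genes: over the 39 members the intervals reached from -0.38 to 0.53 on the log2 scale, or from 0.768-fold to 1.45-fold. The count of 0 depended on 1 library. Without RfA1 replicate 2, 6 members passed the adjusted p (15.4%), but so did 20.1% of all genes, and leaving out any of the other 5 libraries in turn gave 0.

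By class, 14 of 21 hnRNP genes, 8 of 14 SR genes and 1 of 4 CLK genes had a positive log2 fold change of RfA1 over GFP. The median log2 fold changes were 0.072 for the hnRNP class, 0.085 for the SR class and -0.047 for the CLK class, against -0.0024 for all 13002 tested genes. The medians of the hnRNP and SR classes were positive in all 16 alternatives, whereas that of the CLK class became positive in 3 of them, among them limma on log2(TPM + 1) (0.013). On that TPM scale 18, 13 and 3 genes of the classes were positive, and the median of all tested genes was also higher, at 0.045. The mean log2 CPM of the hnRNP class was taken relative to the GFP mean. It was 0.053, 0.030 and 0.064 in the RfA1 libraries (replicates 1, 2 and 3), whereas the GFP libraries had 0.051, -0.028 and -0.023. For the SR class the RfA1 libraries had 0.065, 0.050 and 0.12, and the GFP libraries 0.088, -0.052 and -0.036. In both classes GFP replicate 1 lay within the range of the RfA1 libraries, so that the groups overlapped. For the CLK class the values were -0.078, 0.018 and 0.058 with RfA1 and 0.11, -0.079 and -0.026 with GFP. After a correction of each library for the GC content of transcripts, the medians of the hnRNP, SR and CLK classes were 0.0069, 0.032 and -0.065.

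**Figure D2:**
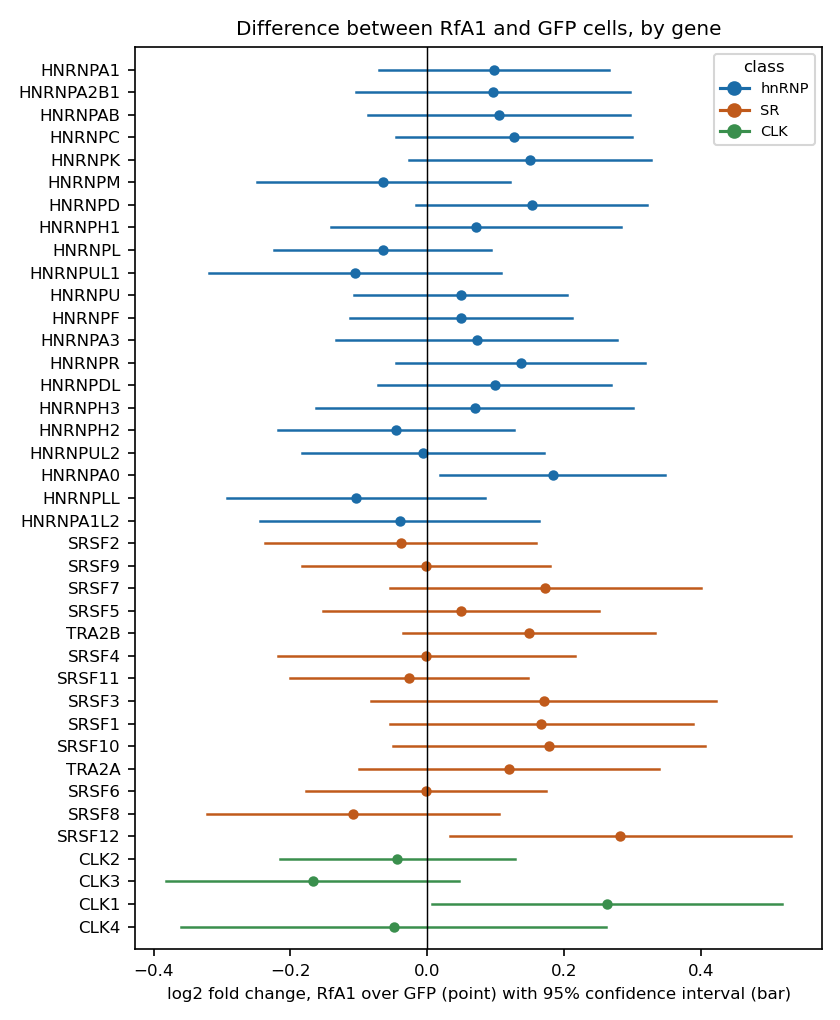
Log2 fold change of RfA1 over GFP for each of the 39 members (points, coloured by class, in the order of their TPM) with 95% confidence intervals (bars) in the edgeR model. The intervals of 36 members include 0, and those of HNRNPA0, SRSF12 and CLK1, the members with an unadjusted p under 0.05, do not.

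For the named partners of RfA1, HNRNPA1 (Gene ID 3178) had 1722, 1563 and 1511 CPM (read counts after TMM scaling to a common library size) in GFP replicates 1, 2 and 3. In RfA1 replicates 1, 2 and 3 it had 1774, 1634 and 1725 CPM. GFP replicate 1 lay above RfA1 replicate 2 and just below RfA1 replicate 3, and the groups overlapped. HNRNPA1 thus differed by 0.098 on the log2 scale (standard error 0.077, 95% confidence interval -0.070 to 0.27, adjusted p = 0.560 in the edgeR model). SRSF1 (Gene ID 6426), the founding SR protein, which also serves in mRNA export, had 354, 289 and 284 CPM with GFP and 344, 319 and 378 CPM with RfA1. Here GFP replicate 1 was higher than all libraries except RfA1 replicate 3. SRSF1 differed by a log2 fold change of 0.17 (standard error 0.10, 95% confidence interval -0.055 to 0.39, adjusted p = 0.455 in the same model). Neither gene passed the test, and after the GC correction the log2 fold changes were 0.025 and 0.082. The estimated counts of HNRNPA1 and of its close copy HNRNPA1L2 were not whole numbers in any of the 6 libraries, and how reads were divided between them is uncertain. The counts of HNRNPH2 and SRSF10 were not whole in any library either, and that of HNRNPUL1 in 1.

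Of the hnRNP class, HNRNPA0 (Gene ID 10949), which binds AU-rich elements in inflammatory mRNAs, had the smallest p. It had 150, 159 and 159 CPM with GFP and 176, 183 and 174 CPM with RfA1, with no overlap. This is a log2 fold change of 0.18 (standard error 0.076, 95% confidence interval 0.018 to 0.35, adjusted p = 0.325 in the edgeR model), or 0.097 after the GC correction. HNRNPD, also known as AUF1 and a factor of AU-rich mRNA decay, had 520, 477 and 472 CPM with GFP and 550, 516 and 567 CPM with RfA1, where GFP replicate 1 exceeded RfA1 replicate 2 (log2 fold change 0.15, adjusted p = 0.393). HNRNPK, a binder of C-rich RNA through KH domains, had 773, 713 and 726 CPM with GFP and 850, 745 and 861 CPM with RfA1 (log2 fold change 0.15, adjusted p = 0.414). Again only GFP replicate 1 and RfA1 replicate 2 were out of order. The same held for HNRNPR, a factor of mRNA transport in neurons, with 304, 273 and 276 CPM against 315, 290 and 333 CPM (log2 fold change 0.14, adjusted p = 0.455). For HNRNPC, which binds U-rich tracts and keeps cryptic exons silent, the values were 988, 904 and 925 CPM against 1047, 945 and 1083 CPM (log2 fold change 0.13, adjusted p = 0.465), with the same order of libraries. After the GC correction HNRNPD, HNRNPK, HNRNPR and HNRNPC had log2 fold changes of 0.072, 0.070, 0.0069 and 0.025. Without RfA1 replicate 2, HNRNPK passed (0.22, adjusted p = 0.0318 in the edgeR model).
The remaining hnRNP genes had log2 fold changes from -0.11 (HNRNPUL1) to 0.10 (HNRNPAB), with adjusted p-values of 0.563 to 0.975 in the edgeR model. They include HNRNPU (0.049), a scaffold protein of chromatin, the binders of G-tracts HNRNPF (0.050), HNRNPH1 (0.072), HNRNPH2 (-0.046) and HNRNPH3 (0.070), and HNRNPL (-0.065) and HNRNPLL (-0.10), which bind CA-rich RNA. HNRNPA2B1 (0.096), HNRNPA3 (0.072) and HNRNPDL (0.099), close relatives of HNRNPA1 and HNRNPD, were positive, whereas HNRNPM (-0.064), HNRNPA1L2 (-0.040) and HNRNPUL2 (-0.0058) were negative. The sign turned after the GC correction for HNRNPA2B1 (-0.0082), HNRNPA3 (-0.042), HNRNPU (-0.029), HNRNPH3 (-0.028), HNRNPL (0.0056) and HNRNPUL2 (0.018). With an unchanged sign, HNRNPLL (-0.21), HNRNPAB (0.16), HNRNPH2 (-0.12), HNRNPA1L2 (-0.099) and HNRNPH1 (0.086) moved farther from 0.

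Of the SR class, SRSF12 (Gene ID 135295), the least abundant member and an atypical SR protein that can counteract splicing activators, had 17.0, 16.2 and 14.4 CPM with GFP and 17.9, 21.1 and 19.0 CPM with RfA1. The groups did not overlap. The log2 fold change of 0.28 (standard error 0.11, 95% confidence interval 0.033 to 0.53, adjusted p = 0.321 in the edgeR model) was the largest of the 39 members, at counts of 163 to 221 reads per library. In the next 3 SR genes, as in SRSF1, GFP replicate 1 was the highest GFP library and RfA1 replicate 2 the lowest RfA1 library. SRSF10, whose dephosphorylated form represses splicing in heat shock, had 257, 203 and 218 CPM with GFP and 264, 228 and 275 CPM with RfA1 (log2 fold change 0.18, adjusted p = 0.446). SRSF7 had 245, 200 and 207 CPM against 253, 216 and 267 CPM (log2 fold change 0.17, adjusted p = 0.451), and SRSF3, like SRSF7 an adaptor of mRNA export, 334, 255 and 264 CPM against 315, 285 and 358 CPM (log2 fold change 0.17, adjusted p = 0.500). In each of these 3 genes the group ranges overlapped. After the GC correction SRSF12, SRSF10, SRSF7 and SRSF3 had log2 fold changes of 0.18, 0.057, 0.083 and 0.072. Without RfA1 replicate 2, SRSF7 (0.26, adjusted p = 0.0330) and SRSF10 (0.25, adjusted p = 0.0395) passed in the edgeR model.
The Transformer-2 homologs, which bind purine-rich enhancers of GAA repeats, lay in the same direction. TRA2B had 345, 313 and 329 CPM with GFP and 362, 336 and 396 CPM with RfA1 (log2 fold change 0.15, adjusted p = 0.432 in the edgeR model). TRA2A had 86.4, 71.0 and 72.7 CPM and 83.9, 75.9 and 90.1 CPM (log2 fold change 0.12, adjusted p = 0.584). The groups overlapped for both. TRA2B and TRA2A had 0.071 and 0.033 after the GC correction, and without RfA1 replicate 2 TRA2B passed (0.20, adjusted p = 0.0479 in the edgeR model).
Before the GC correction the remaining 7 SR genes stayed nearer to 0, with log2 fold changes from -0.11 (SRSF8) to 0.050 (SRSF5). Their adjusted p-values were 0.612 to 0.995 in the edgeR model. SRSF2, which stays in the nucleus, had a log2 fold change of -0.039, and SRSF11 of -0.026. SRSF4, SRSF6 and SRSF9 were closest to 0, at -0.0014, -0.0022 and -0.0023. After the GC correction SRSF5 came nearer to 0, at 0.031. SRSF4 (0.022) and SRSF9 (0.023) turned to a positive sign and lay farther from 0 than before. With an unchanged sign, the others also moved farther from 0, SRSF8 to -0.18, SRSF11 to -0.14, SRSF6 to -0.098 and SRSF2 to -0.086.

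The CLK kinases had log2 fold changes of either sign. CLK1 (Gene ID 1195) had 37.3, 28.9 and 32.4 CPM in GFP replicates 1, 2 and 3 and 40.1, 34.9 and 43.3 CPM in RfA1 replicates 1, 2 and 3, where GFP replicate 1 exceeded RfA1 replicate 2. This gave a log2 fold change of 0.26 (standard error 0.12, 95% confidence interval 0.0075 to 0.52, adjusted p = 0.349 in the edgeR model), and 0.21 after the GC correction. CLK3 had 68.0, 70.2 and 68.7 CPM with GFP but 56.6, 70.5 and 57.2 CPM with RfA1, so that RfA1 replicates 1 and 3 were below every GFP library while replicate 2 was above them. CLK3 thus differed by -0.17 on the log2 scale (standard error 0.098, adjusted p = 0.446), and by -0.21 after the GC correction. CLK2 had 119, 118 and 121 CPM with GFP and 110.03, 124 and 113 CPM with RfA1 (log2 fold change -0.044, adjusted p = 0.809), and CLK4 21.0, 15.9 and 16.3 CPM against 15.2, 16.3 and 19.9 CPM (log2 fold change -0.049, adjusted p = 0.888, or -0.16 after the GC correction). The groups overlapped in all 4 kinases, and the sign of CLK2 turned in 3 of the 16 alternatives and that of CLK4 in 3. Without RfA1 replicate 2, CLK1 (0.34, adjusted p = 0.0285) and CLK3 (-0.28, adjusted p = 0.0213) passed in the edgeR model, in the fit in which 20.1% of all genes passed.

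**Figure D3:**
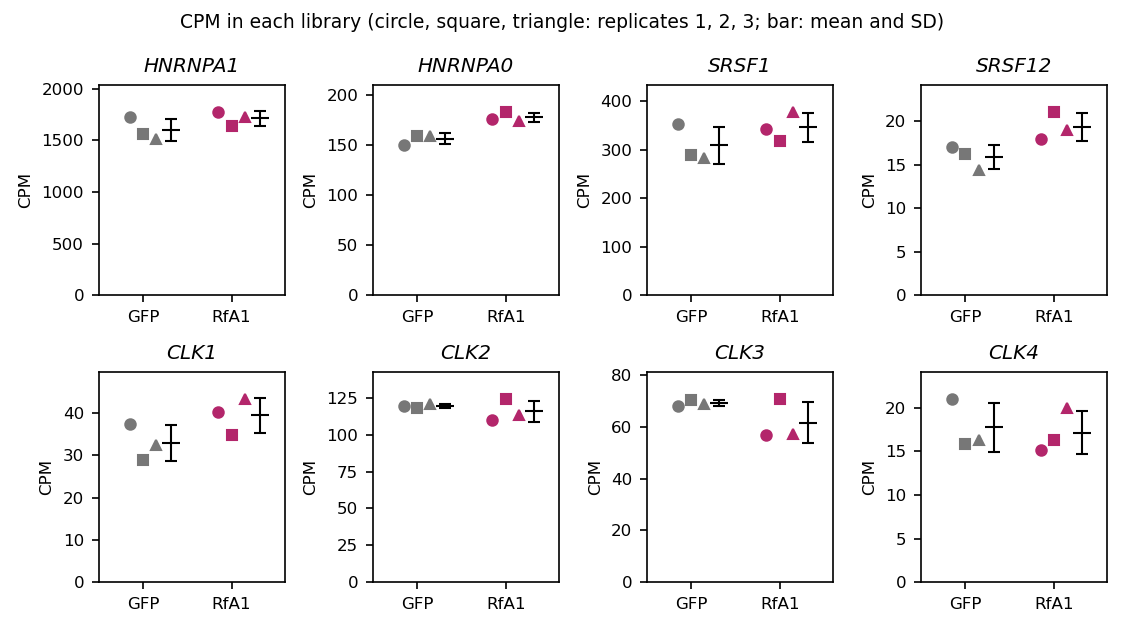
CPM (axis from 0) of HNRNPA1, HNRNPA0, SRSF1, SRSF12 and the 4 CLK genes in each library, with circles, squares and triangles for replicates 1, 2 and 3 and bars for the mean and SD of the 3 libraries of a group. Only for HNRNPA0 and SRSF12 do all RfA1 symbols lie above all GFP symbols, and the square of RfA1 replicate 2 lies apart from the other RfA1 symbols for CLK1 and CLK3.

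Within the groups the members parted into genes that were low and genes that were high in RfA1 replicate 2. It was the lowest of the RfA1 libraries for 22 of the 39 members and the highest for 15, against 44.6% and 39.6% of all tested genes, where the shares of the members were 56.4% and 38.5%. The former had a median transcript GC content of 41.0% and the latter of 52.2%. The members farthest from the other RfA1 libraries, chosen after their values were seen, were HNRNPH3 (-0.29), SRSF7 (-0.27), CLK1 (-0.26) and SRSF10 (-0.24) on the low side and SRSF4 (0.35), CLK3 (0.31), SRSF2 (0.30) and HNRNPAB (0.28) on the high side, each as log2 CPM of RfA1 replicate 2 minus the mean of RfA1 replicates 1 and 3. GFP replicate 1 was the highest GFP library for 25 of the 39 members and for 5174 of 13002 tested genes. For 20 members it was so while RfA1 replicate 2 was the lowest RfA1 library, which is 51.3% of the 39 members against 28.6% of all tested genes. The difference of RfA1 replicate 2 from the other RfA1 libraries correlated with GC content by a Spearman's rho of 0.585 across the 39 members and 0.687 across all tested genes, and that of GFP replicate 1 by -0.507 and -0.581. These are descriptions across genes of the same libraries, which share depth and scaling. The members had a median transcript GC content of 42.2%, lower than the 49.1% of all tested genes, and their log2 fold changes of RfA1 over GFP correlated with it by a rho of -0.428, against -0.548 across all tested genes.

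**Figure D4:**
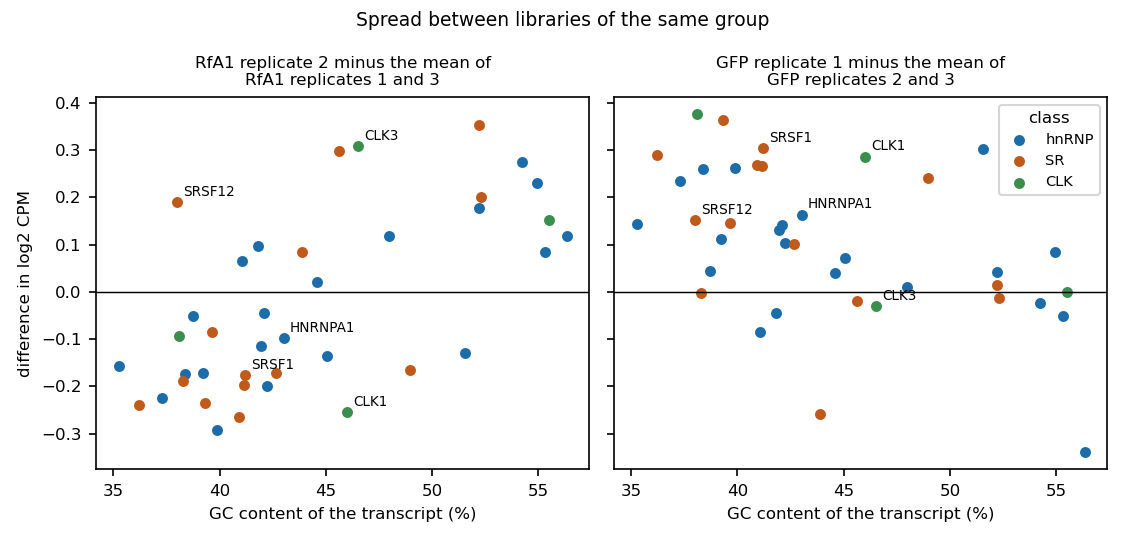
Difference in log2 CPM of RfA1 replicate 2 from the mean of the other 2 RfA1 libraries (left) and of GFP replicate 1 from the mean of the other 2 GFP libraries (right), against the GC content of the transcript in %, with a point for each of the 39 members coloured by class. Points rise with GC content on the left and fall on the right (Spearman's rho 0.585 and -0.507).

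Other genes of the splicing pathway were read from the same test, in 4 lists written from general knowledge. None of them passed an adjusted p of 0.05 under the edgeR quasi-likelihood model, nor in DESeq2 or limma on log2(TPM + 1). With the replicate number as a block, 1, 1, 2 and 0 genes of the lists passed, in the order given here, and 4.81% of all genes. At an unadjusted p under 0.05 the shares of all tested genes were 7.3% higher and 6.64% lower. Of 13 genes for kinases, phosphatases and importers of SR proteins, 4 had an unadjusted p under 0.05, all higher with RfA1. The median log2 fold change of this list was 0.079 (0.068 after the GC correction). PPP1CC, a catalytic subunit of PP1, had 245, 216 and 226 CPM with GFP and 271, 254 and 291 CPM with RfA1 (log2 fold change 0.25, adjusted p = 0.278), and the nuclear speckle kinase DYRK1A 27.3, 26.7 and 25.2 CPM against 31.0, 31.3 and 31.9 CPM (0.25, adjusted p = 0.290). Of 47 core spliceosome genes tested, 5 were higher and 1 lower at an unadjusted p under 0.05, with a median of -0.018 (0.0014 after the GC correction). They included PHF5A (0.28, adjusted p = 0.253) and SF3B6 (0.27, adjusted p = 0.278), subunits of the SF3B complex that recognises the branch site. Of 48 other RNA-binding splicing regulators, 6 were higher and 1 lower (median 0.021, or -0.012 after the GC correction), with SCAF4, a factor that prevents early polyadenylation, at 0.27 (adjusted p = 0.234) and RBM4 at -0.22 (adjusted p = 0.278). Of 17 genes of nonsense-mediated decay and the exon junction complex, 0 were higher and 2 lower (median -0.028, or -0.053 after the GC correction). The 2 were UPF3A at -0.22 (adjusted p = 0.316) and SMG9 at -0.18 (adjusted p = 0.347). Without RfA1 replicate 2, the adjusted p was passed in the edgeR model by 3 of 13, 16 of 47, 16 of 48 and 1 of 17 genes of the lists and by 20.1% of all genes.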

How the data were processed

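RNA-seq libraries of HEK293T cells with GFP alone (n = 3) or GFP-tagged RfA1 (n = 3) were compared, grouped by the sample labels. The authors deposited 1 table of 16655 genes. It holds estimated counts per library that the authors did not normalize (7.39% to 8.02% not whole), the authors' TPM, and the authors' FPKM, which were not used here, nor were the authors' means over replicates. The submitters' processing notes name HISAT and GRCh38.p13. The counting tool, annotation and strand setting are not given in the sources used here.

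Estimated counts were rounded. Genes were kept by filterByExpr (minimum count 10, minimum total 15), scaled by TMM and compared with the quasi-likelihood F-test of edgeR 4.0.16 with robust dispersions (R 4.3.3), two-sided, with Benjamini-Hochberg adjustment over 13002 genes. The coefficient of variation between replicates was 8.83%. Confidence intervals use the standard error from this test. The test was checked on simulated counts with 200 genes changed 1.5-fold, where it recovered 79.5% of them and 3.64% of its calls were false. These counts were drawn independently for each gene, without the differences between libraries that follow GC content. A 1.5-fold change lies outside the intervals of all members, so the check does not cover differences of their size. Libraries of a group differed by more than sampling noise. Alternatives were DESeq2 1.42.0, other scalings and filters, the replicate number as a block, a GC spline (5 degrees of freedom; GENCODE 29, 1 transcript per gene, 98.2% matched), limma 3.58.1 on log2(TPM + 1), and each library left out. Values per library are given for HNRNPA1, SRSF1, the CLK and TRA2 genes and the 6 hnRNP and 6 SR members with the smallest p; of each pathway list the 2 genes with the smallest p are named, and of each class the 3 most and least abundant. Members, lists and alternatives were chosen with earlier results of these data known. Promoters came from RefSeq (GRCh38.p14). Figures were drawn with matplotlib 3.10.9.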

Additional observations from a re-analysis of the deposited data

How the results depend on the processing

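The number of members past the adjusted p was 0 in the 10 alternatives that kept all libraries and 0 to 6 with a library left out, the 6 without RfA1 replicate 2. These were CLK3, CLK1, SRSF10, SRSF7, TRA2B and HNRNPK. In each such fit a group is left with 2 libraries. The number at an unadjusted p under 0.05, 3 higher and 0 lower, was 1 higher in DESeq2 and 5 higher in limma on log2(TPM + 1). After the GC correction it was 2 higher and 3 lower, and with the correction and the block together 2 higher and 5 lower. Of SRSF12, HNRNPA0 and CLK1, only CLK1 stayed under 0.05 after the GC correction (unadjusted p = 0.0203 in the edgeR model). In that fit HNRNPA0 had an unadjusted p of 0.210 and SRSF12 of 0.143. With a library left out the number was 0 to 11 higher and 0 to 3 lower. It was 0 higher without GFP replicate 2 or 3, and 7 higher and 1 lower without GFP replicate 1. It was 1 higher without RfA1 replicate 1 or 3, and 11 higher and 3 lower without RfA1 replicate 2. Over all genes, 10 passed the adjusted p, against 33 in DESeq2, 6 with upper-quartile scaling, 20 without the filter on low counts, 212 after the GC correction, 4 in limma and 0 to 2636 with a library left out. The median of the hnRNP class, 0.072, moved to 0.0069 after the GC correction, to 0.0070 with the correction and the block together, and to 0.12 in limma on log2(TPM + 1). CLK2, -0.044, turned to 0.028 after the GC correction, to 0.028 with the correction and the block, and to 0.014 in limma. CLK4, -0.049, turned to 0.012 in limma and ranged from -0.17 to 0.086 with a library left out. The cause of these moves was not tested. HNRNPA1 and SRSF1 kept their sign and did not pass in any of the 16 alternatives, with adjusted p-values of 0.201 to 0.894 and 0.0689 to 0.887.

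The replicate numbers were also entered as a block. Across genes, deviations from the group mean correlated between same-numbered libraries by 0.166, 0.321 and -0.143 for replicates 1, 2 and 3, so the numbers are not shown to pair the cultures. With the replicate block 625 genes and 0 members passed the adjusted p, the smallest of the members being 0.0822 for CLK1, and 9 members were higher and 1 lower at an unadjusted p under 0.05. With the GC correction added, 475 genes and 0 members passed in edgeR, the smallest adjusted p of the members being 0.0690 for CLK3.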
